A study of Mus musculus with 6 samples.

Results

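The integrin and cadherin genes of bone marrow mesenchymal stem and progenitor cells (MSPCs) were examined for open chromatin. Members were all protein-coding genes whose symbol begins with Itga or Itgb or is Cdh followed by a number, without Itgb1bp1, Itgb1bp2, Itgb3bp and Itgbl1. This gave 50 of 21631 protein-coding genes: 18 integrin alpha, 9 integrin beta and 23 cadherin genes. The cadherins comprise 5 type I and 13 type II classical members. The other 5 (Cdh13, Cdh16, Cdh17, Cdh23 and Cdh26) are not classical cadherins in the usual classification, so the name rule is wider than that class.

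Integrins are receptors made of an alpha and a beta chain that tie the cell to matrix proteins or to receptors on other cells, and talin and kindlin bind the beta tail to activate them. Cadherins bind like cadherins on neighbouring cells through calcium-dependent outer repeats, and the classical ones hold actin through catenins. In marrow, stromal cells carry Vcam1 and fibronectin, ligands for integrins of blood stem cells, while N-cadherin (Cdh2) and cadherin-11 (Cdh11) are known from osteoblast-lineage and other mesenchymal cells.

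The mice were Lepr-Cre;LSL-tdTomato+/- females, 8 to 10 weeks old at treatment, and tdTomato+ marrow cells were sorted. The reporter marks any cell whose lineage has expressed the leptin receptor Cre, so it labels a mixed stromal lineage and not a single state. The PBS group received 4 weekly intravenous injections of phosphate-buffered saline. The DOX group received 4 weekly intravenous injections of 5 mg/kg doxorubicin, an anthracycline that poisons topoisomerase II, and both groups were collected 8 weeks after treatment. Each group holds 3 ATAC-seq libraries, called biological replicates in the titles. The sources used here do not give how many mice each library holds, and all p-values therefore refer to the spread among libraries, which may be technical.

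In ATAC-seq the transposase Tn5 tags accessible DNA, and a peak is a stretch where tags pile up. Each library's file is a list of 65462 to 100642 peaks on chromosomes 1 to 19 and X. The background solved from the peak values was 0.558 to 1.27 fragments per position in PBS and 1.67 to 2.22 in DOX, so every DOX library was deeper. Therefore the 65462 strongest peaks of each library were used unless stated, and each peak went to the nearest protein-coding gene span within 100 kb of its summit. Of 10 MSPC marker genes, all had peaks in every library, and 8 to 9 had a peak within 1 kb of a gene end. Peaks of those 10 genes numbered 161 to 249 in PBS and 160 to 178 in DOX. Markers of other marrow cells had 36 to 41 peaks over 10 endothelial genes, 12 to 18 over 10 myeloid, 18 to 20 over 10 B cell and 10 to 12 over 10 erythroid and megakaryocyte genes. Tek, Itgam, Lyz2, Mpo, Cd79a, Cd79b, Ms4a1, Vpreb1, Gp1ba, Gata1 and Hbb-bs had no peak in any library.

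Promoter sequences show which members were open at a listed start site. A listed start is not always at the end of the gene span. For example, those of Itga9 and Itgb7 lie inside it and had no peak, while a region at the 5′ end of each span was listed in every library. A window with no peak therefore does not mean that the gene was closed at its 5′ end. RefSeq windows of 300 bases (250 before to 50 after a start, GRCm38.p6) matched 32 of the 50 members with 36 windows. A peak lay on 17 windows in all 6 libraries and on 18 in none, and the Cdh6 window had a peak in 4 libraries. The sequences are those of 3 strong open promoters (Itgb1, Itgav and Cdh24), the open promoter with the lowest p in the ranks described further on (Itgb8), an open and an unlisted start of the same gene (Itga3), and 4 unlisted starts. Capitals mark the searched motifs, and each window is written 5′ to 3′ on its gene's strand.
Itgb1, chr8:128685404-128685703, plus strand, peak in 6 libraries: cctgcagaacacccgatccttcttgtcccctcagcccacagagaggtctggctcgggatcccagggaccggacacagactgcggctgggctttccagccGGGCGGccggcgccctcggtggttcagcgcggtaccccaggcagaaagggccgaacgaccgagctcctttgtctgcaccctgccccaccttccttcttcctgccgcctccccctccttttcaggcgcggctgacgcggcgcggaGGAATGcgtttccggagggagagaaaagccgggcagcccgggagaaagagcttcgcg
Itgav, chr2:83724147-83724446, plus strand, peak in 6 libraries: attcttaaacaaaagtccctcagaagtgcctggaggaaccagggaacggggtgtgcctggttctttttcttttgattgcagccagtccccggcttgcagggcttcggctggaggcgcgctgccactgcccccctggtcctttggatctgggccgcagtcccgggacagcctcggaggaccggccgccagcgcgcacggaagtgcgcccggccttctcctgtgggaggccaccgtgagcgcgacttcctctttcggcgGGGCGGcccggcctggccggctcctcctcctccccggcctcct
Cdh24, chr14:54641315-54641614, minus strand, peak in 6 libraries: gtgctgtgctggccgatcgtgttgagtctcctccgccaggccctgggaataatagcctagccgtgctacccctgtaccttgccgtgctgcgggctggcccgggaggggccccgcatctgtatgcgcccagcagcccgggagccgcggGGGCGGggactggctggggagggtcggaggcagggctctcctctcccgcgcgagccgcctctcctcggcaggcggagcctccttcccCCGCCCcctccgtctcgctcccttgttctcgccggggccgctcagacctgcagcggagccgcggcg
Itgb8, chr12:119238227-119238526, minus strand, peak in 6 libraries: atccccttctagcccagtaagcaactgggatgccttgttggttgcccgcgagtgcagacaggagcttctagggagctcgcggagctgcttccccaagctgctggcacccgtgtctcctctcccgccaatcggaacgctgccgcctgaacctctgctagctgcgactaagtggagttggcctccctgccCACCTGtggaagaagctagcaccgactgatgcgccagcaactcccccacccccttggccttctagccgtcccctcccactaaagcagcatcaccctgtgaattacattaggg
Itga3, chr11:95076665-95076964, minus strand, peak in 6 libraries: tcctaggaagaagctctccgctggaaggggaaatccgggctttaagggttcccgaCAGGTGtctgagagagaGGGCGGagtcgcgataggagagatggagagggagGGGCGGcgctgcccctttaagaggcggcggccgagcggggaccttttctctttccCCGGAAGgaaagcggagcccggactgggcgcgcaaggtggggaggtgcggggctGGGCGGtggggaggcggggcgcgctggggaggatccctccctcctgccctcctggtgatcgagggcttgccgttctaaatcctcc
Itga3, chr11:95069149-95069448, minus strand, no peak: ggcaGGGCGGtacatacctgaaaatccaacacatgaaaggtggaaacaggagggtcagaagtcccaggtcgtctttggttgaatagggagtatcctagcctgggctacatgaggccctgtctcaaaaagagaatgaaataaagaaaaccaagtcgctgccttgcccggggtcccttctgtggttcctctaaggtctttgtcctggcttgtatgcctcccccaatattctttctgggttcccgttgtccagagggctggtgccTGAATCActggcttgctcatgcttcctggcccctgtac
Itga9, chr9:118711442-118711741, plus strand, no peak: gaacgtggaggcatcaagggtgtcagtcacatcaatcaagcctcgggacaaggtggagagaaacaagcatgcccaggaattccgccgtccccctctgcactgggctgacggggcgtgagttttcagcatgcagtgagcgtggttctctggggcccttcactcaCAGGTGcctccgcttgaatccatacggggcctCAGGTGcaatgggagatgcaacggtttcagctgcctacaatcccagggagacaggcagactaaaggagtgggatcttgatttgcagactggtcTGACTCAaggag
Itgam, chr7:128062390-128062689, plus strand, no peak: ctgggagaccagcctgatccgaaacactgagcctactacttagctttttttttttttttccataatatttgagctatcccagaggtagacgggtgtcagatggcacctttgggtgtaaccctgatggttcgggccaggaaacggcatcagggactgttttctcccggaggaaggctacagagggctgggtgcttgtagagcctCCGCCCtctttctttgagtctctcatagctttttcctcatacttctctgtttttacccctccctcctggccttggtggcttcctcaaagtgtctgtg
Itgax, chr7:128129300-128129599, plus strand, no peak: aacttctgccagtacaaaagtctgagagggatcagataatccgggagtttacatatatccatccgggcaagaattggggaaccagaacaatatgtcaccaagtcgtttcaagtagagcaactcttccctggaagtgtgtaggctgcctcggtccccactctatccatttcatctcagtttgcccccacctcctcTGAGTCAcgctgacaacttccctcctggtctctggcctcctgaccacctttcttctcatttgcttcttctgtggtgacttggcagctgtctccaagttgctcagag
Cdh9, chr15:16728665-16728964, plus strand, no peak: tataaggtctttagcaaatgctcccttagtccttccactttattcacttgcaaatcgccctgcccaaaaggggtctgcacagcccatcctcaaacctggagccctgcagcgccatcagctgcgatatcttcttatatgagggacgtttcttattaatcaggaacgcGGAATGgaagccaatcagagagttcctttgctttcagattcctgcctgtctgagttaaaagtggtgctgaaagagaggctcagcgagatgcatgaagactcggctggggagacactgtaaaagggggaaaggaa

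Open member promoters had higher median GC and CpG than unlisted ones, which was also so over all genes. The 17 windows open in all libraries had a median GC content of 61.3% and 13 CpG dinucleotides, against 51.5% and 5.5 in the 18 windows with no peak. Over all 21045 windows the medians were 62.3% and 22 CpG for those open in all 6 libraries, and 48.3% and 3 CpG for those open in none. The median CpG number of open member promoters was thus that of all windows, 13. The Itga10 window was open in every library with 6 CpG and 51.0% GC, and the Cdh8 window was in none with 21 CpG and 62.3% GC.

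Motifs were searched on both strands, and a match is a description only. The GC box (GGGCGG) was in 10 of 17 open windows (58.8%) and 3 of 18 unlisted ones (16.7%), against 70.0% and 17.1% of all windows in those states. AP-1 (TGANTCA) was in 3 member windows, those of Itga9, Itgax and the unlisted start of Itga3 shown above, which is 8.33% of member windows and 7.04% of all windows. The E-box of Snail and Zeb (CACCTG) was in 9 member windows (25.0%) and 19.9% of all windows, and it is in capitals in the Itgb8, Itga9 and open Itga3 sequences. The TEAD site (GGAATG) was in 5 member windows (13.9%) and 13.5% of all windows, among them those of Itgb1 and Cdh9. The ETS site (CCGGAAG) was in 1 member window (2.78%), the open Itga3 start, and in 11.7% of all windows. No member window held a TATA box (TATAAA), which was in 12.7% of all windows.

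**Figure D1:**
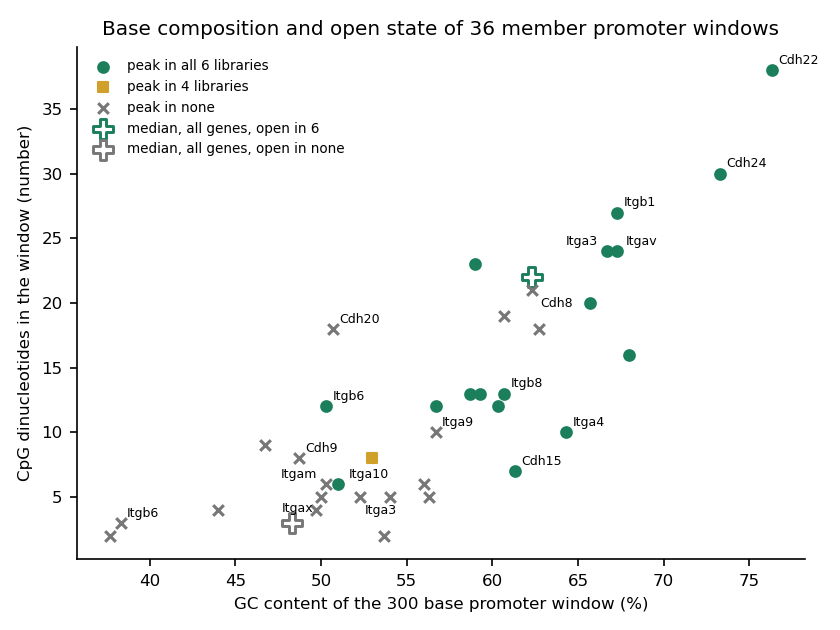
GC content (x axis, %) and number of CpG dinucleotides (y axis) of the 36 promoter windows of members; circles have a peak in all 6 libraries, the square in 4, crosses in none, and plus outlines are the medians over all genes. Open windows have a median of 13 CpG and unlisted windows 5.5.

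Most integrin and cadherin genes had open chromatin in or near them. A peak was assigned in all 6 libraries to 41 members (82.0%), beside 64.8% of all protein-coding genes, and no test of that difference was run. A gene end was counted as open if a summit lay within 1 kb of either end of the gene span, 5′ or 3′. Start sites further inside are missed: Itgav and Cdh18 had a promoter window peak in all 6 libraries but none at a gene end. By this measure a gene end was open in every library for 25 members (50.0%), against 54.2% of all genes. By family these were 11 of 18 integrin alpha genes, 7 of 9 integrin beta genes and 7 of 23 cadherin genes. Cadherin genes were also longer and sparser: the median span was 148 kb with 1.5 peaks per 100 kb of span, against 56.4 kb and 9.26 for integrin alpha and 47.9 kb and 7.92 for integrin beta genes. Peaks beyond the span count in these densities.

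Collagen-binding alpha chains, partners of the beta 1 chain, carried 53 to 59 peaks per library. Itga11, the receptor chain for fibrillar collagen in mesenchymal cells, had 25, 25 and 21 peaks in PBS replicates 1, 2 and 3 and 23, 24 and 25 in DOX. Itga1 had 21, 22 and 22 after PBS and 22, 24 and 22 after DOX. The libraries overlapped for both, and neither differed in limma on log2(peaks + 0.5) (Itga11 difference 0.02, SE 0.09; Itga1 0.06, SE 0.09; adjusted p = 1 for each). Itga2 had 7 to 8 and Itga10 2 to 3 peaks. All 4 genes had an open gene end in every library.

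Among chains for laminin, Itga6, a chain also used to sort stem cells of other tissues, had 6, 9 and 7 peaks after PBS and 10, 9 and 8 after DOX (difference 0.29, SE 0.17, adjusted p = 0.917, limma). Itga3 had 4 to 6 and Itga7 1 to 2. Chains for RGD-containing ligands carried 29 to 33 peaks per library. Itga8, the nephronectin receptor chain, had 14, 14 and 13 peaks after PBS and 13, 16 and 14 after DOX (difference 0.06, SE 0.10, adjusted p = 1, limma). Itgav, the chain of vitronectin receptors and of integrins that activate TGF-beta, had 9 in each PBS library and 9, 8 and 7 in DOX. Itga5, the fibronectin receptor chain, had 4 to 6.

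Itga9, a chain that binds tenascin and Vcam1, had the most peaks of all members: 25, 28 and 25 after PBS and 28, 26 and 29 after DOX. These libraries overlapped, with a difference of 0.09 (SE 0.08, adjusted p = 0.947, limma). Its listed promoter window, shown above, had no peak, but that start lies inside the gene span. A region over the 5′ end of the span, at -105084 bp from that start, was listed in every library (chr9:118606371-118607621). Itga4, the chain by which blood stem cells bind Vcam1, had 3 to 4 peaks and an open gene end in all 6 libraries. Its promoter region ranked at percentiles 1.8 to 9.7 of shared regions, and its other shared region, 27535 bp outside the gene, at 69.6 to 74.3.

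Beta chains of many tissues carried 46, 52 and 51 peaks after PBS and 40, 45 and 44 after DOX. The largest of these genes by peaks was Itgb5, a partner of the alpha V chain in vitronectin binding, with 18, 20 and 20 peaks after PBS and 14, 17 and 14 after DOX. All Itgb5 DOX counts lay below all PBS counts, yet the difference of -0.36 (SE 0.10) did not pass the test over all genes (adjusted p = 0.599, limma). A region can hold several peaks, and counting each region once gave -0.19 (adjusted p = 0.972, limma). In bulk libraries, fewer cells with open chromatin and less open chromatin per cell cannot be told apart. Itgb3, which pairs with the alpha V and alpha IIb chains, had 9 to 12 peaks, Itgb6 7 to 8, Itgb1 5 to 7, Itgb4 2 to 5 and Itgb8 2 to 4.

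Type I classical cadherins carried 30 to 34 peaks per library, and Cdh2 held more than any other cadherin: 18, 17 and 17 after PBS and 17, 16 and 16 after DOX. Cdh4 (R-cadherin) had 8, 6 and 6 after PBS and 7, 8 and 6 after DOX. Both groups overlapped for each, with differences of -0.08 (SE 0.10, adjusted p = 0.973) for Cdh2 and 0.07 (SE 0.16, adjusted p = 1) for Cdh4 in limma. Cdh15 (M-cadherin, of muscle) had 4 to 6 and Cdh3 (P-cadherin) 1 to 2.

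Type II cadherins carried 31 to 40 peaks per library. Cdh11, the mesenchymal type II cadherin, had 10, 11 and 15 peaks after PBS and 13, 11 and 11 after DOX (difference -0.02, SE 0.18, adjusted p = 1, limma). The highest count was the shallowest library, PBS replicate 3. Cdh8, Cdh9 and Cdh19, cadherins known mainly from neurons and glia, had no peak in any library. Of the non-classical cadherins, Cdh13 (T-cadherin, a membrane-anchored receptor that binds adiponectin) had 12, 11 and 14 after PBS and 13, 10 and 10 after DOX (difference -0.16, SE 0.15, adjusted p = 0.947, limma).

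Members known from other cell types differed, some without a peak and others with several. Itgam and Itgax, alpha chains of myeloid and dendritic cells, had no peak, and neither had Itgb2l. In the full deposited lists Itgam had 1 peak in each of 3 libraries, PBS replicate 1 and DOX replicates 1 and 3. Itgb2, the beta chain of leukocytes, had 2 peaks and an open gene end in every library, with its shared regions at percentiles 3.0 to 37.2. Itgb7, the other leukocyte beta chain with peaks, had 3 to 4, also with an open gene end in all 6 libraries, and its region at that end (chr15:102233756-102234644) was at percentiles 64.0 to 74.2. Of the leukocyte alpha chains, Itgae had 2 peaks, in regions at 59.5 to 83.2, and Itgal had 3 to 4, the strongest shared one at 71.3 to 79.5, while neither had an open gene end. Cdh1 (E-cadherin, of epithelium) had 2 to 3 peaks, the shared ones at percentiles of 7.6 or lower. Cdh5 (VE-cadherin, of endothelium) had 6, 8 and 7 peaks after PBS and 6, 7 and 6 after DOX, and none lay within 1 kb of its ends. Its 4 shared regions lay 14958 to 85011 bp outside the gene, the strongest at percentiles 67.8 to 73.3. Itga2b, the platelet alpha IIb chain, had 3 to 4 peaks on a span of 16.6 kb and none at its promoter window, but a region 2692 bp downstream of that start (chr11:102466662-102467864) ranked at percentiles 91.2, 88.6 and 90.1 after PBS and 87.7, 87.1 and 87.3 after DOX.

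**Figure D2:**
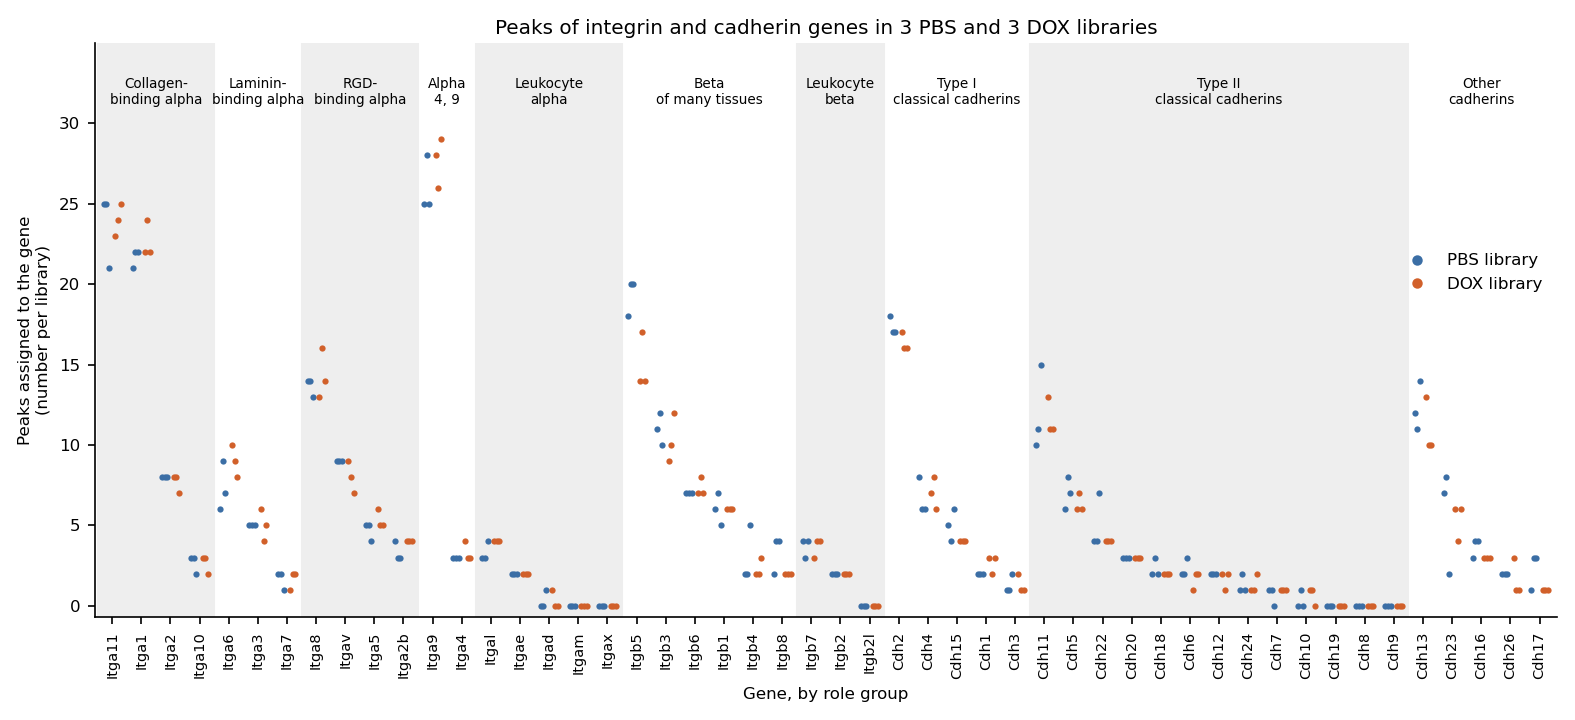
Peaks assigned to each of the 50 genes (y axis, number per library) by role group (x axis); each point is a library, blue for PBS and orange for DOX. Itga9 has 25 to 29 peaks, and Itgb5 has 18 to 20 in PBS and 14 to 17 in DOX.

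In sum over families, integrin alpha genes had 135, 141 and 130 peaks in PBS (135 ± 5.51, SD, n = 3) and 144, 142 and 139 in DOX (142 ± 2.52). Integrin beta genes had 52, 57 and 57 (55.3 ± 2.89) and 45, 51 and 50 (48.7 ± 3.21). Cadherin genes had 90, 95 and 98 (94.3 ± 4.04) and 93, 83 and 84 (86.7 ± 5.51). The groups did not overlap for beta genes, and overlapped for cadherin and alpha genes. Treatment and depth cannot be told apart in these counts, as every DOX library was deeper and had wider peaks. Over all genes the totals were 59501 to 59868 in PBS and 59567 to 59724 in DOX. In the full deposited lists, which are longer in deeper libraries, all members had 395, 411 and 285 peaks after PBS and 402, 405 and 465 after DOX, a ratio of means of 1.17 against 1.16 over all genes.

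**Figure D3:**
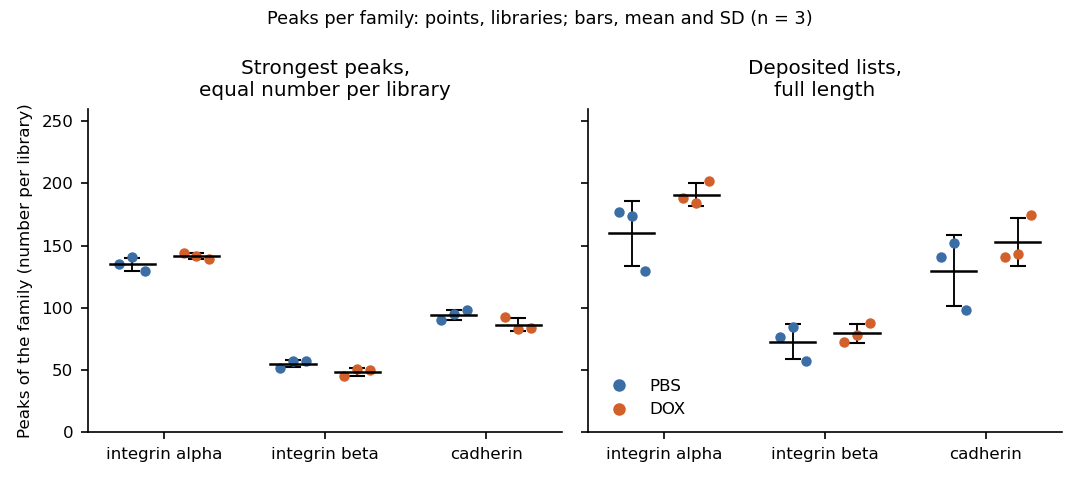
Peaks per family and library (y axis) in lists of equal length, left, and in the full deposited lists, right; points are libraries, black bars the mean and SD of 3. With equal lists the beta genes have 52 to 57 peaks in PBS and 45 to 51 in DOX; with full lists the groups overlap for beta and cadherin genes, and alpha genes have 130 to 177 in PBS and 184 to 202 in DOX.

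No member passed the test of peaks per gene. Of 35 members with a mean of at least 2 peaks, 0 had an adjusted p under 0.05, where 20 of 8793 genes tested (0.227%) did, and 0 of them with limma's own degrees of freedom. At an unadjusted p under 0.05 there was 1 member lower in DOX (Itgb5), where 2.63% of all genes were lower, and none higher, where 3.1% were. The median log2 difference was 0.06 for 14 integrin alpha, -0.05 for 8 integrin beta and -0.13 for 13 cadherin genes tested, beside -0.00 over all genes. Itgb5 passed in 2 of 15 alternatives: without DOX replicate 2 (-0.45, adjusted p = 0.0354) and with the replicate number as a block (-0.36, adjusted p = 0.0144, limma). DOX replicate 2 had the DOX count nearest to PBS (17 peaks), so leaving it out widens the difference. In the other 13 alternatives Itgb5 did not pass. Among these were the full deposited lists (-0.40, adjusted p = 0.0781) and shorter lists of the strongest peaks (-0.19, adjusted p = 0.978, limma). Leaving out any other single library gave -0.41 to -0.31, with an adjusted p of 0.606 or more (limma). Itgb8 had 2, 4 and 4 peaks after PBS and 2 in each DOX library (-0.57, adjusted p = 0.772, limma). It passed only without PBS replicate 1 (-0.85, adjusted p = 0.00827, limma). That is the PBS library equal to the DOX libraries, and leaving it out leaves no spread within either group. The pass therefore follows from the library left out and is no support for a difference. In the other 13 of 14 alternatives Itgb8 did not pass, such as the full deposited lists (-0.27, adjusted p = 0.699, limma).

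Merged over libraries, the members held 341 open regions of 78613, and 208 of them had a peak in all 6 libraries (61%, against 63.3% of regions assigned to any gene). Inside gene spans lay 62.2% of member regions, away from promoter windows and gene ends, against 47.4% of regions assigned to any gene. For each library the shared regions were ranked by the strength of their strongest peak among all 49098 shared regions, with 100 as the top percentile. Member regions had a median percentile of 39.5, beside 50.2 for all assigned regions. By family the medians were 58.6 for integrin beta, 46.4 for integrin alpha and 32.4 for cadherin genes.

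The strongest member regions ranked near the top in both groups. The Itgb1 promoter region (chr8:128685119-128686785) was at percentiles 95.2, 95.6 and 94.2 after PBS and 94.9, 95.0 and 94.6 after DOX; its window is the first sequence shown above. The Itgav promoter region (chr2:83723679-83725749) was at 93.7, 95.4 and 94.0 and at 95.1, 94.4 and 95.0. Both overlapped between groups (adjusted p = 0.943 and 0.838, limma). Beta 1 and alpha V are the chains with the most partners in their families.

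Outside promoters, the top Itga11 region lay 23206 bp upstream of its start (chr9:62654123-62655226), at percentiles 93.6, 93.7 and 96.6 after PBS and 95.4, 91.1 and 94.2 after DOX. The top Itgb5 region lay 62161 bp downstream of its start, inside the gene (chr16:33891292-33893055), at 93.1, 93.3 and 90.7 and at 92.5, 91.8 and 91.6. The Itga1 promoter region (chr13:115100834-115102487) was at 89.1, 91.2 and 94.7 and at 92.8, 91.2 and 93.7. None of the 3 passed the test (adjusted p = 0.695, 0.874 and 0.84, limma).

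Among cadherins the top region was inside Cdh4 (chr2:179672451-179673428), at percentiles 95.4, 95.9 and 94.6 after PBS and 96.7, 95.9 and 96.5 after DOX (adjusted p = 0.449, limma). A region of 3690 bp over an end of Cdh11 (chr8:102783723-102787412) was at 91.1, 91.9 and 92.2 and at 91.3, 91.1 and 90.7 (adjusted p = 0.767, limma). Cdh24, a type II cadherin with an open GC-rich promoter shown above, was at 90.1, 88.6 and 91.7 and at 90.8, 91.0 and 91.7 (chr14:54641078-54642041). All 3 were above percentile 88 in every library. The region over an end of Cdh2 was at 87.3 to 92.6, and that of Cdh16, a kidney cadherin, at 76.5 to 81.7.

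No member region passed the rank test either. Of 208 shared member regions 0 had an adjusted p under 0.05 in limma on normal scores of the ranks, and of all 49098 shared regions 0% had one. At an unadjusted p under 0.05, 13 member regions were higher in DOX (6.25%, against 6.99% of all shared regions) and 20 were lower (9.62%, against 6.18%). Of these 33 regions, 6 stayed under that p in all 9 alternatives run on them, which reuse the same libraries. Every DOX library was above every PBS library in 21 member regions, where 9.37% of all shared regions were, and below in 26, where 9.41% were. The mean percentile was higher in DOX in 65 of 105 integrin alpha, 11 of 36 integrin beta and 34 of 67 cadherin regions, beside 22315 of 44966 regions assigned to any gene. Neighbouring regions of a gene are not independent. Of the 67 shared cadherin regions, 1 was higher in DOX at an unadjusted p under 0.05 (1.49%, of Cdh11). Another 6 were lower (8.96%), of Cdh2, Cdh13, Cdh15 and Cdh23. The largest of these differences was in a Cdh2 region, at -0.90 on the normal score scale (adjusted p = 0.287, limma).

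Of 36 shared integrin beta regions, 7 (19.4%) had an unadjusted p under 0.05 and a lower rank in DOX: 3 of Itgb5, 2 of Itgb8 and 1 each of Itgb3 and Itgb4. Another 3 (8.33%) had a higher rank at that p, 2 of Itgb6 and 1 of Itgb1. Over all shared regions these shares were 6.18% and 6.99%. An inner region of Itgb8, the beta chain of the integrin that activates TGF-beta (chr12:119164085-119164580), was at percentiles 73.3, 66.3 and 70.2 after PBS and 55.9, 55.3 and 52.9 after DOX. All DOX libraries lay below all PBS libraries there, by -0.41 on the normal score scale (SE 0.08, adjusted p = 0.1, limma). The Itgb8 promoter region (chr12:119237983-119239035), which holds the window shown above, was at 45.8, 40.2 and 56.5 and at 33.4, 33.8 and 13.7 (-0.58, SE 0.19, adjusted p = 0.213, limma). Without DOX replicate 3 that difference was -0.36. These are both of the shared regions of Itgb8.

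Of 11 shared Itgb5 regions, 10 had a lower mean percentile in DOX, beside 22649 of 44966 regions assigned to any gene. Whether these counts differ was not tested, and neighbouring regions of a gene are not independent. In 3 of the 11 Itgb5 regions every DOX library lay below every PBS library, where 9.41% of all shared regions did. The largest of these differences was inside the gene, 92799 bp from the start (chr16:33922065-33923034), at percentiles 47.3, 36.2 and 25.8 after PBS and 18.2, 8.8 and 13.0 after DOX (-0.77, SE 0.23, adjusted p = 0.175, limma). Its promoter region overlapped between groups, at 71.4, 72.4 and 66.2 and at 64.3, 68.0 and 69.0.

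Itgb6, the epithelial beta chain that also activates TGF-beta, showed the opposite order. A region inside it, 24324 bp from the start (chr2:60697636-60698595), was at percentiles 53.4, 39.2 and 57.6 after PBS and 70.0, 70.0 and 65.7 after DOX. The difference was 0.48 (SE 0.11, adjusted p = 0.115, limma), and of the alternatives run it passed with limma's library weights alone (adjusted p = 0.0422). Its promoter region was at 13.3 to 22.4 in PBS and 14.5 to 26.4 in DOX.

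Among alpha chains, Itga9 had 15 of 21, Itga11 11 of 18 and Itga1 11 of 17 shared regions with a higher mean percentile in DOX. Over shared regions assigned to any gene this was 22315 of 44966. At an unadjusted p under 0.05, 9 of 105 alpha regions were higher in DOX (8.57%) and 7 were lower (6.67%), near the shares over all regions. Each of these genes had regions in both directions at that p: 4 higher and 1 lower in Itga9, 3 higher and 2 lower in Itga11, and 1 each in Itga1.

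A region inside Itga1 (chr13:115089371-115091248) was at 87.4, 88.5 and 88.9 after PBS and 91.0, 93.0 and 93.2 after DOX, 0.25 higher on the score scale (SE 0.06, adjusted p = 0.136, limma). A region 97398 bp outside Itga1 (chr13:115199134-115199818) was at 61.2, 55.6 and 67.0 and at 54.0, 52.1 and 37.7 (-0.34, SE 0.12, adjusted p = 0.241, limma), and without DOX replicate 3 the difference was -0.21. The groups overlapped in neither, and the order was opposite.

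The lower Itga11 regions lay inside the gene. The region 35400 bp from the start (chr9:62712301-62713433) was at a mean percentile of 27.0 ± 1.76 (SD, n = 3) after PBS and 9.4 ± 8.5 after DOX, with every DOX library below every PBS library (-0.82, SE 0.29, adjusted p = 0.239, limma). The region 54848 bp from the start (chr9:62732467-62733204) overlapped between groups, at 0.9 in DOX replicate 3 and 13.7 to 38.3 in the other 5 libraries, and its difference of -0.89 (SE 0.35, adjusted p = 0.296, limma) was -0.43 without DOX replicate 3. The largest difference among the 3 higher Itga11 regions was 0.61. The region over the 5′ end of Itga9 named above was also lower, at 62.8, 63.5 and 68.3 and at 55.2, 54.9 and 57.8 (-0.23, SE 0.09, adjusted p = 0.264, limma). A region inside Itga8 (chr2:12212475-12213643) was at 77.4, 78.6 and 79.2 and at 73.3, 72.5 and 67.5 (-0.23, SE 0.07, adjusted p = 0.191, limma).

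**Figure D4:**
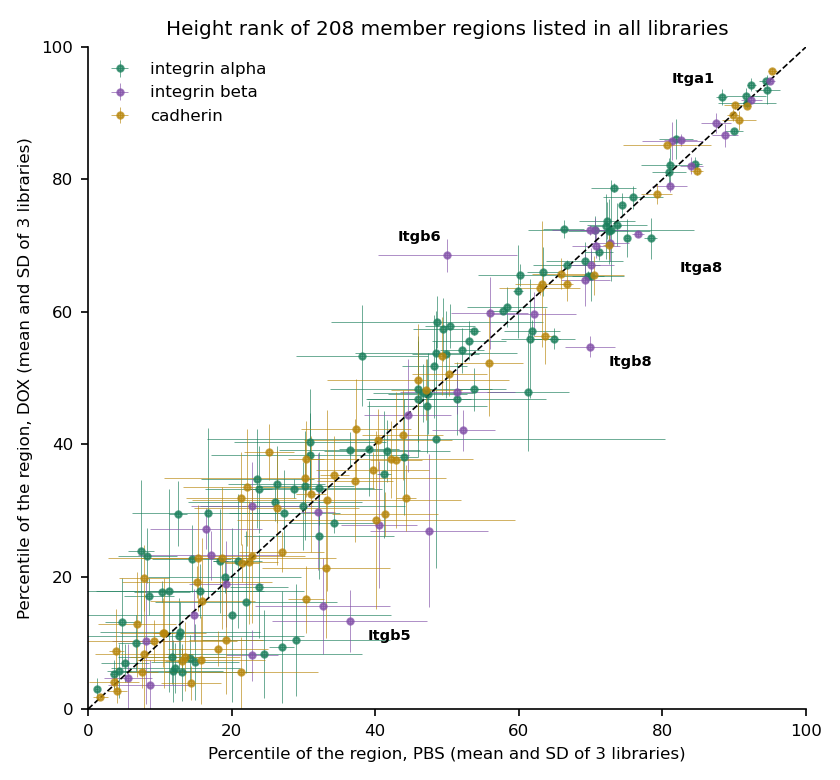
Percentile of the 208 shared member regions in PBS (x axis) and DOX (y axis), as mean and SD of 3 libraries each, coloured by family; the dashed line marks equal ranks and names stand beside the 5 regions with the lowest p. Points follow the line, with the Itgb8 region at 69.9 in PBS and 54.7 in DOX and the Itgb6 region at 50.1 and 68.5.

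**Figure D5:**
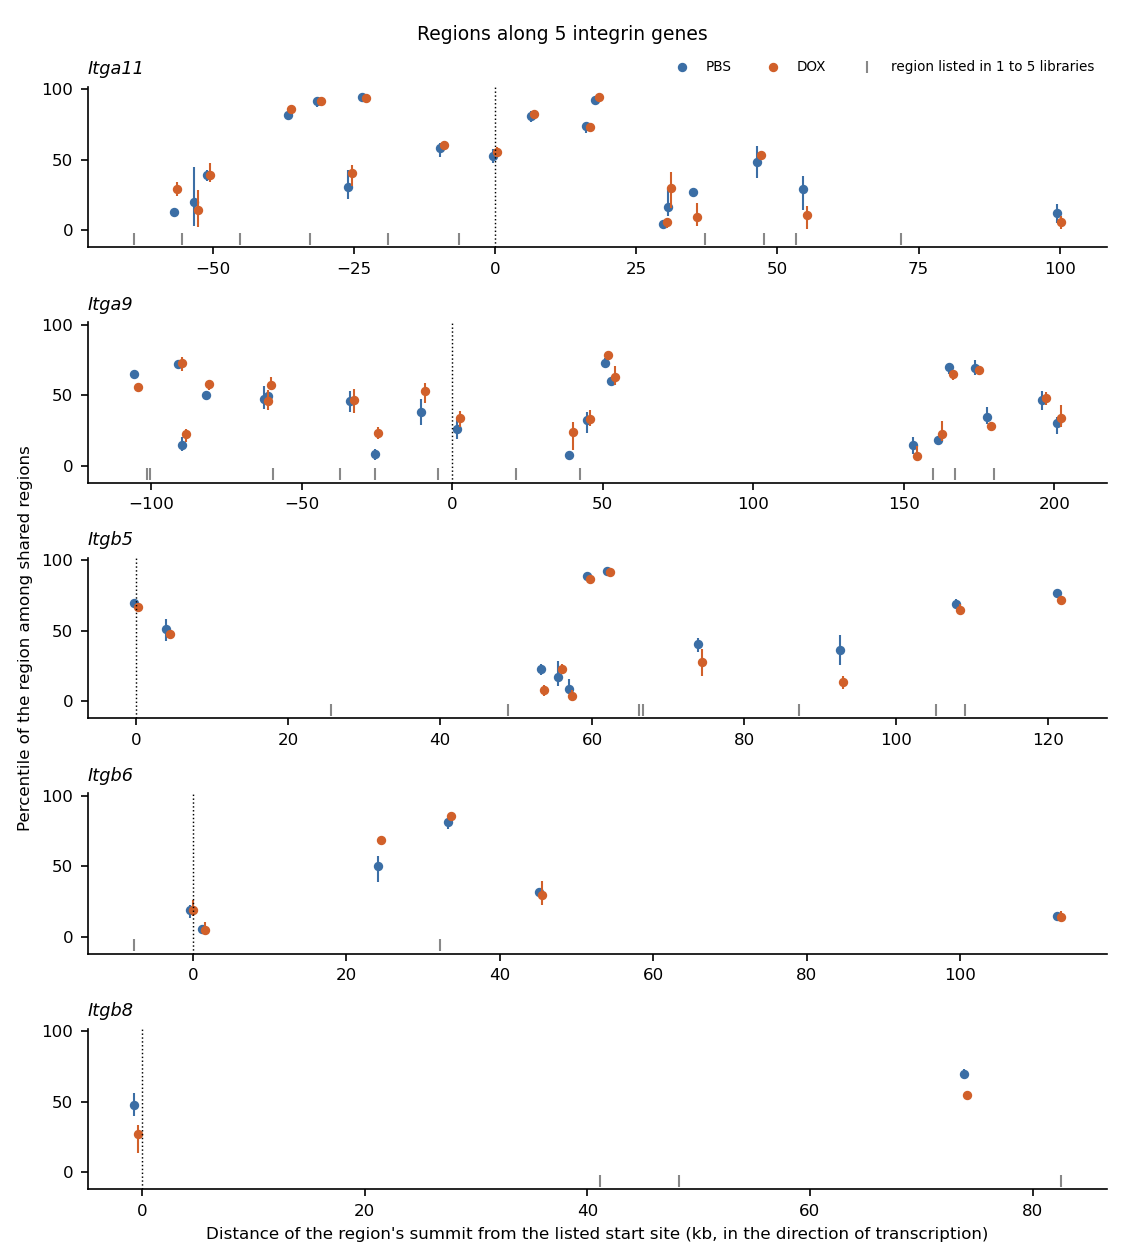
Percentile of shared regions (y axis) along 5 integrin genes by distance from the first listed start (x axis, kb); dots are means and vertical lines ranges of 3 PBS (blue) or 3 DOX (orange) libraries, and grey ticks are regions listed in 1 to 5 libraries. In Itgb5, 10 of 11 regions have a lower mean in DOX, beside 22649 of 44966 shared regions assigned to any gene. The listed start of Itga9 lies inside its gene span.

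Regions listed after a single treatment were rare among members. A region present in every DOX list and in no PBS list lay 32534 bp outside Cdh11 (chr8:102817895-102818135), with 24, 29 and 38 fragments at its summit, and 0.792% of all regions had this pattern. A region present in every PBS list and in no DOX list lay 78529 bp outside Cdh5 (chr8:104022768-104023494), with 24, 15 and 7 fragments, and 0.303% of all regions had it. The weakest kept peaks had 5 to 16 fragments in PBS and 20 to 28 in DOX, so the Cdh11 region and the Cdh5 region stood near those limits. In the full deposited lists 7 member regions had the first pattern and 0 the second.

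Of the partners of integrins and cadherins, 1 gene passed the test of peaks per gene. Ptk2b (Pyk2), a kinase of the adhesion complex, had 6, 5 and 5 peaks after PBS and 8, 8 and 9 after DOX, a difference of 0.60 (SE 0.13, adjusted p = 0.00946, limma). The call was lost with the degrees of freedom of limma (adjusted p = 1), with no lower limit on the spread (0.2), in the full deposited lists (0.599) and without DOX replicate 3 (0.088). At an unadjusted p under 0.05, 3 of 25 tested activation and adhesion complex genes were higher (Ptk2b, Bcar1 and Kank1) and 1 was lower (Tns1), where 3.1% and 2.63% of all genes tested were. Of 20 tested ligands, 2 were higher (Vcam1 and Npnt) and 0 lower, and of 7 tested catenins and cadherin partners 0 in either direction. Whether these small counts differ from the shares over all genes was not tested. Vcam1, the endothelial and stromal ligand of the alpha 4 and alpha 9 chains, had 11 peaks in each PBS library and 14, 14 and 15 in DOX (0.37, SE 0.11, adjusted p = 0.133, limma). Npnt, the ligand of the alpha 8 chain, had 6, 7 and 7 and 8, 9 and 8 (0.30, SE 0.13, adjusted p = 0.601, limma).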

How the data were processed

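The titles gave each library its group and replicate number. The authors deposited a peak list per library on build mm10, and per the submitters' processing notes the tools include Trim Galore 0.6.6, Bowtie2 2.4.5, Picard 2.10.9 and MACS2 2.2.7.1; the sources used here do not give their settings or the Tn5 shift. The authors' lists give for every deposited peak a score, a fold enrichment (a ratio to background), a −log10 p and −log10 q, and a summit position of another kind, in bp from its start. These authors' values are not scaled between libraries and served only to rank peaks and to solve the background and summit heights, which came out whole in 100% of solved peaks (within 0.05).

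Overlapping peaks (at least 1 bp) were merged into regions. Genes and promoter windows were RefSeq tables of GRCm38.p6, which give no exons, so exon, intron and UTR were not told apart. Peaks per gene (pseudocount 0.5, mean of at least 2 peaks) and normal scores of ranks were tested over all features with limma 3.58.1 in R 4.3.3, with Benjamini-Hochberg adjustment; a gene's spread was not let under the trend of all genes, and there the trend counted as known (infinite degrees of freedom), a choice made after a first test on simulated data recovered few changes. Named in full are members holding single-treatment regions, the 5 integrins and 5 cadherins with the most peaks and with the strongest shared region, members marking other cells and members with no peak; the regions with the lowest p and the partner genes that passed or came near were chosen after their values were seen. The members and lists were chosen with earlier results of these data known.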

Additional observations from a re-analysis of the deposited data

How the results depend on the processing

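Member calls were few under each setting. For peaks per gene, 0 members were called higher in DOX under 15 alternatives, and 0 lower except 1 with the replicate block (Itgb5, adjusted p = 0.0144, where calls over all genes were 47 higher and 49 lower instead of 8 and 12) and 0 to 1 with a library left out. Over all genes there were 0 calls with the degrees of freedom of limma, and 50 higher and 48 lower with no lower limit on the spread. For ranks, 1 region was called higher with library weights (Itgb6), and no region in any of the other 11 alternatives, which include the replicate block (0). Regions at an unadjusted p under 0.05 numbered 8 higher and 9 lower in lists of the strongest 32731 peaks, where 92 shared member regions were left; leaving out a library gave 6 to 16 higher and 10 to 17 lower, the fewest without DOX replicate 3. The replicate block gave 14 higher and 18 lower. The titles do not say whether same-numbered libraries share a batch. Deviations of same-numbered libraries correlated by -0.0261 to 0.00568 for peaks and -0.101 to 0.113 for ranks. Those of differently numbered libraries correlated by -0.0236 to 0.0279 and -0.18 to 0.14. With 3 libraries per group these values cannot settle whether libraries were paired.

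Regions listed in DOX only numbered 7 in the deposited lists and 2 to 6 with any library left out (6 without PBS replicate 2, 3 without PBS replicate 1, 2 without each other library). Those in PBS only numbered 0 in the deposited lists and 1 to 7 (7 without PBS replicate 1, 4 without PBS replicate 2, 3 without DOX replicate 2, 2 without DOX replicate 3). The difference in peaks of integrin genes (-0.333) was 37.7 in the deposited lists, and that of cadherin genes (-7.67) was 22.7 there and 0.667 with the strongest 32731 peaks; leaving out a library gave -2.17 to 3.33 and -10.8 to -5.83. Deeper lists are longer, so the deposited lists differ by construction. For the 33 regions with an unadjusted p under 0.05, 9 alternatives each gave 297 values, of which 0 reversed in direction and 1 had an adjusted p under 0.05. The regions were picked by their p in the same libraries that the alternatives reuse, so the lack of reversals is no support for their directions. The unadjusted p was 0.05 or more in 96 of the 297, 83 of them with a library left out, and this touched 27 of the 33 regions. Depth limits regions listed in a part of the libraries: no peak means only that a region was under that library's limit.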
